A study of Caenorhabditis elegans with 24 samples.

Results

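Embryos of Caenorhabditis elegans were compared at 180 min and at 60 min after the 4-cell stage, the third and the first of 8 stages in a time course of the wild-type strain N2. Each stage had 3 samples, so the comparison used 6 of the 24 libraries, and each sample was a pool of 50 embryos taken from cut adults by mouth pipette. The embryos at 180 min and those at 60 min shared the strain and carried no mutation, transgene or treatment named in the labels, and time after the 4-cell stage was the only labelled difference. Messenger RNA was measured by CEL-Seq, which tags the 3′ end of transcripts, and the values below are CPM, counts scaled to a common total of worm counts after correction of the library sizes. The question was how the embryo's mRNA changed across genes over 2 h, as mRNAs loaded by the mother give way to those that the embryo transcribes. The libraries do not tell mRNA made by the mother from mRNA made by the embryo.

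A newly fertilised worm egg carries mRNAs and proteins that the mother loaded into the oocyte. Maternal RNA-binding proteins such as OMA-1, MEX-5 and POS-1 control where and when these mRNAs are translated, and both the proteins and many of the mRNAs are later destroyed. Transcription by the embryo starts in the somatic cells, while the germline precursors are held silent by PIE-1, and the first zygotic genes include short-lived regulators that start the endoderm, mesoderm and ectoderm programmes.

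The 180 min libraries held 340134 to 666477 worm counts and the 60 min libraries 302648 to 641397. A single count stood for 1.304 to 2.79 CPM at 180 min and for 1.50 to 3.11 CPM at 60 min. Across the tested genes, Spearman correlations were 0.945 to 0.965 among the 180 min libraries, 0.951 to 0.976 among the 60 min libraries and 0.703 to 0.749 between both stages. The maternal markers mex-5, pos-1 and nos-2 were lower at 180 min than at 60 min. Markers of mesoderm, epidermis and pharynx were higher, as were the neuroblast markers hlh-14 and lin-32, but the neuroblast marker ngn-1 was lower. Of the endoderm markers, end-3 was lower and elt-2 did not pass. The library of 60 min replicate 1 stood apart. In it, 49 genes exceeded 40 CPM and were over 5 times as high as in both other 60 min libraries, and 26 of these were vit (yolk protein) or col (collagen) genes. The 6 yolk protein genes, which the adult mother's intestine expresses, had summed values of 106, 340.4 and 178.6 CPM in the 180 min libraries, against 1229, 84.2 and 126 CPM in those of 60 min, and 0 of the 6 passed the test. The summed major sperm protein genes stayed at or under 5.05 CPM at 180 min and 18.7 CPM at 60 min. Without 60 min replicate 1, 2170 genes were higher and 1993 were lower at 180 min.

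Of 8279 tested genes, 2321 (28.0%) were higher and 2036 (24.6%) were lower at 180 min at an adjusted p below 0.05, by edgeR's quasi-likelihood test with Benjamini-Hochberg adjustment, so 52.6% passed in either direction. At an unadjusted p below 0.05, 4751 genes (57.4%) differed. Changes of at least 2-fold were seen in 1928 of the higher genes (23.3% of those tested) and in 1560 of the lower genes (18.8%). The values of the 3 libraries at 180 min did not overlap those at 60 min for 4609 genes (55.7%), among them 2121 of the higher and 1925 of the lower genes. A log2 change of at least 4 in size was reached by 238 of the higher and 310 of the lower genes. The fitted log2 change of a gene at 0 counts at one stage depends on the prior count. Folds against such a stage are therefore given as lower bounds, taking a floor of 3 counts summed over the stage. Where it differs, a list median is also given with such genes at their bound and without genes at or under the floor at both stages, as the value at bounds. Libraries were also scaled to the added ERCC spike-in RNAs, using the 69 with at most 500 counts in every library. With this scaling 1300 genes were higher and 973 lower, and the median log2 change of all tested genes moved by 0.07. The balance of both directions turned with other settings: DESeq2 gave 1850 higher and 2263 lower genes, DESeq2 size factors within edgeR 1986 and 2376, and a test of all 17522 genes with a count 2293 and 2430. In pooled embryos, fewer cells of a type and less RNA per cell cannot be told apart.

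**Figure D1:**
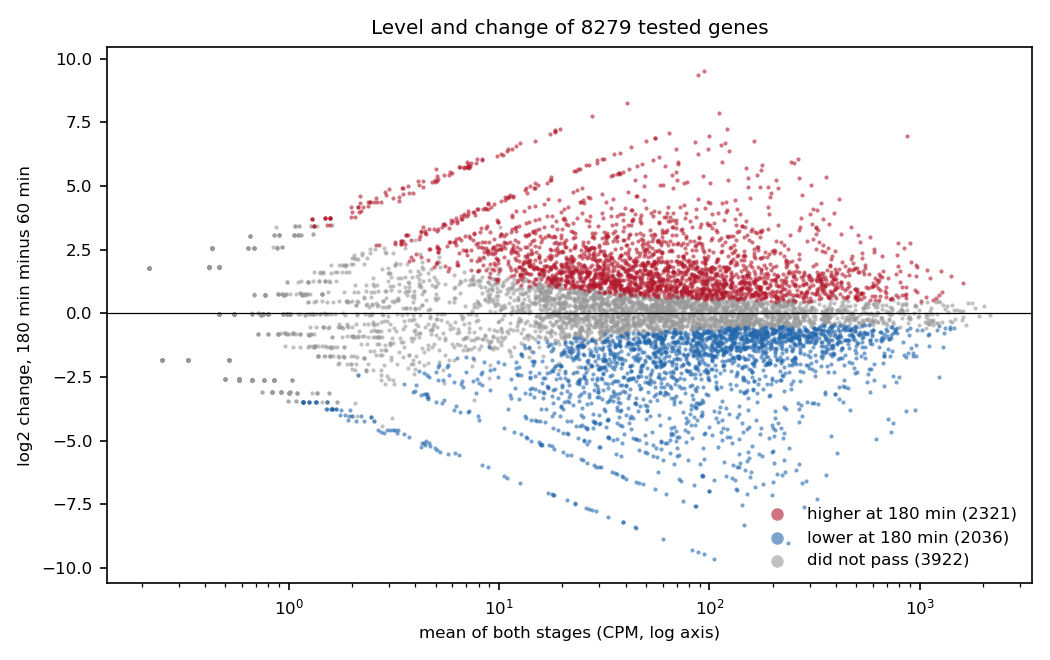
Each point is 1 of 8279 tested genes, placed by its mean of the 180 min and 60 min stage means (x, CPM on a log axis) and its log2 change at 180 min relative to 60 min (y). The 2321 higher genes (red) and 2036 lower genes (blue) lie on both sides of 3922 genes that did not pass (grey); the slanted rows of points at low levels are genes at 0 or few counts at one stage, whose fitted change depends on the prior count.

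The genes called lower made up 17.7 to 19.4% of the worm counts at 180 min and 46.7 to 47.8% at 60 min. The genes called higher made up 42.3 to 42.9% at 180 min and 14.3 to 14.6% at 60 min. These shares describe genes picked by the same values and test nothing further. Among the 2036 lower genes, 81 had 0 counts in all 180 min libraries, and among the 2321 higher genes, 94 had 0 counts in all 60 min libraries. Of all 8279 tested genes, 656 had 0 counts in all 180 min libraries and 545 in all 60 min libraries. Over the 8 stages, 1509 of the 2036 lower genes had their highest stage mean at 60 min, beside 1938 of all 8279 tested genes. Lower genes were picked for high values at 60 min, so the call itself favoured this. Of the 2321 higher genes, 304 were highest at 120 min, 425 at 180 min and 589 at 500 min. Over all tested genes these numbers were 1061, 675 and 2477.

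Among the largest decreases were genes with no count at 180 min. F19F10.1 had 0 counts in all 180 min libraries and 187, 218 and 229 CPM in the 60 min libraries, so it was at least 110-fold lower. F38C2.7 likewise had no count in the 180 min libraries and 184, 194 and 185 CPM at 60 min, at least 95.3-fold lower. The 3 libraries of each stage were close together and far from those of the other stage for both genes. F10G2.4 (at least 89.9-fold), C38D9.8 (at least 82.4-fold), F02H6.3 (at least 48.0-fold), Y37E11AL.9 (at least 39.8-fold) and M151.6 (at least 34.4-fold), for which the sources used here give no name, were also at 0 counts at 180 min. So were sdz-18 and sdz-32, named for zygotic transcripts that depend on the maternal regulator SKN-1, which were at least 63.0-fold and 46.0-fold lower. The F-box gene fbxb-17 was at least 39.5-fold lower.

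sgnh-1 had 0, 1.304 and 0 CPM at 180 min and 445, 465 and 504 CPM at 60 min, a ratio of 727 with a 95% counting interval of 130 to 28770. The T-box gene tbx-33 had 0, 0 and 2.79 CPM at 180 min and 308, 259 and 309 CPM at 60 min, a ratio of 444 (counting interval 79.3 to 17590). Each rests on 1 count at 180 min, so the size of the change is poorly bounded from above while its direction was shared by all 6 libraries.

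Among the largest increases, ctl-2, a peroxisomal catalase, had 159, 248 and 162 CPM at 180 min and 0 counts in all 60 min libraries, at least 102-fold higher; it lies beside closely related catalase genes, so its counts are uncertain. The gene swt-3, of the SWEET sugar transporter family, had 187, 159 and 184 CPM at 180 min and 0 counts at 60 min, at least 85.5-fold higher. The gene zip-8, which encodes a bZIP transcription factor, had the highest level of these genes, with 2054, 1131 and 1970 CPM at 180 min and 12.4, 20.1 and 8.97 CPM at 60 min (log2 change 6.96 ± 0.48 SE, adjusted p = 4.0e-12). It had rank 10 by level among all genes at 180 min, and all 3 of its 180 min values lay far above its 60 min values.

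Several others encode regulators and signalling proteins. The homeobox gene ceh-27 had 272, 211 and 243 CPM at 180 min and 0, 2.00 and 1.49 CPM at 60 min, a ratio of 175 (counting interval 48.0 to 1448). The gene dsl-3, which encodes a Notch-ligand-like protein, had 255, 209 and 201 CPM at 180 min and 0, 2.00 and 0 CPM at 60 min, a ratio of 326 (58.1 to 12910). In both cases 1 or 2 counts at 60 min were set against 333 or more at 180 min. The gene dmd-5, of the DM-domain family that includes sex-determination regulators, was at least 28.7-fold higher, and F32H2.6 at least 40.5-fold. The gene pnp-1, a purine nucleoside phosphorylase (ratio 150, counting interval 41.1 to 1242), let-4, an extracellular leucine-rich repeat protein of epithelia (165, 29.3 to 6572), C05A9.2 (179, 31.8 to 7113) and W03G11.4 (163, 28.8 to 6456) had 1 or 2 counts at 60 min. The gene txdc-12.1, with a thioredoxin domain, had 234.7, 369 and 363 CPM at 180 min and 3.11, 2.00 and 2.99 CPM at 60 min (log2 change 6.78 ± 0.40 SE).

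Most mRNAs of the oocyte's RNA-binding regulators fell. Of 29 listed genes 24 were tested, and 22 were lower and 2 higher at 180 min, and the median log2 change was -2.12 beside 0 over all tested genes. The gene oma-1, which represses translation in the oocyte and zygote, had 5.05, 27.4 and 13.95 CPM at 180 min and 880, 720 and 788 CPM at 60 min (log2 change -5.47 ± 0.65 SE, adjusted p = 1.2e-06). The gene pos-1, required for germline and endoderm fates, had 167, 183 and 162 CPM at 180 min and 1051, 1029 and 1067 CPM at 60 min (log2 change -2.61 ± 0.76 SE; not called without replicate 3 of every stage). Every 180 min library was below every 60 min library for both, but the 180 min values of pos-1 were far above those of oma-1. mex-1 (log2 change -5.30), mex-6 (-4.65), mex-5 (-3.75), oma-2 (-3.20) and the PUF-family repressors puf-7 (-3.84), puf-6 (-3.53) and puf-5 (-3.37) were lower as well. The 2 higher genes were atx-2, the ataxin-2 homologue (log2 change 2.53 ± 0.28 SE), and larp-1, which had 70.7, 33.9 and 41.9 CPM at 180 min and 15.6, 4.01 and 1.49 CPM at 60 min (3.04 ± 0.79 SE; not called without replicate 3 of every stage).

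P granule and germline genes, only some of whose proteins sit in the RNA-rich granules of germline precursors, behaved likewise. Of 22 tested of 29 listed, 19 were lower and 1 higher, and the median log2 change was -2.05. The core P granule protein gene pgl-1 had 2.52, 2.61 and 0 CPM at 180 min and 80.9, 106 and 86.7 CPM at 60 min, a ratio of 46.7 (counting interval 15.6 to 229). The gene pie-1, the repressor of transcription in germline precursors, had 0, 7.82 and 8.37 CPM at 180 min and 121, 134 and 203 CPM at 60 min (log2 change -4.67 ± 0.49 SE, adjusted p = 5.2e-10). The groups were wide apart for both genes. The Argonaute genes hrde-1 (log2 change -4.12), csr-1 (-3.71) and wago-1 (-3.17) and the helicase genes glh-3 (-4.09), glh-2 (-2.92) and glh-1 (-1.79; not called without replicate 3 of every stage) were lower. The Nanos homologue nos-2 was lower by less, with 167, 166 and 142 CPM at 180 min and 370, 463 and 498 CPM at 60 min (-1.49 ± 0.46 SE). It did not pass with spike-in scaling or without replicate 3 of every stage. The 1 higher gene was mes-4, a histone methyltransferase of the germline (log2 change 1.14 ± 0.31 SE), and it did not pass with spike-in scaling or without replicate 2 of every stage.

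Transcripts of meiosis and of the eggshell followed the same course. Of 13 tested meiosis genes (21 listed), 11 were lower and 0 higher, and the median log2 change was -2.12. The gene htp-3, for a protein of the meiotic chromosome axis, had 7.57, 3.91 and 2.79 CPM at 180 min and 77.8, 64.2 and 97.2 CPM at 60 min (log2 change -4.04 ± 0.49 SE, adjusted p = 1.2e-08). The gene syp-2, of the synaptonemal complex, had a ratio of 24.5 (counting interval 8.06 to 122). The spo-11 nuclease gene that starts recombination had a log2 change of -2.12 and rec-8 cohesin one of -2.60. Of 11 tested eggshell and egg activation genes (18 listed), 8 were lower and 1 higher, and the median log2 change was -1.74. The gene trcs-1, of oocyte and sperm membrane traffic, had 5.05, 10.4 and 2.79 CPM at 180 min and 208, 291 and 250 CPM at 60 min (-5.10 ± 0.72 SE). The enzyme gene gna-2, which makes the sugar precursor of eggshell chitin, was lower with a log2 change of -3.84 ± 0.45 SE. The 1 higher gene was mbk-2, the kinase of the oocyte-to-embryo transition, with 747, 599 and 700 CPM at 180 min and 392, 411 and 365 CPM at 60 min (0.81 ± 0.21 SE); it did not pass with spike-in scaling.

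**Figure D2:**
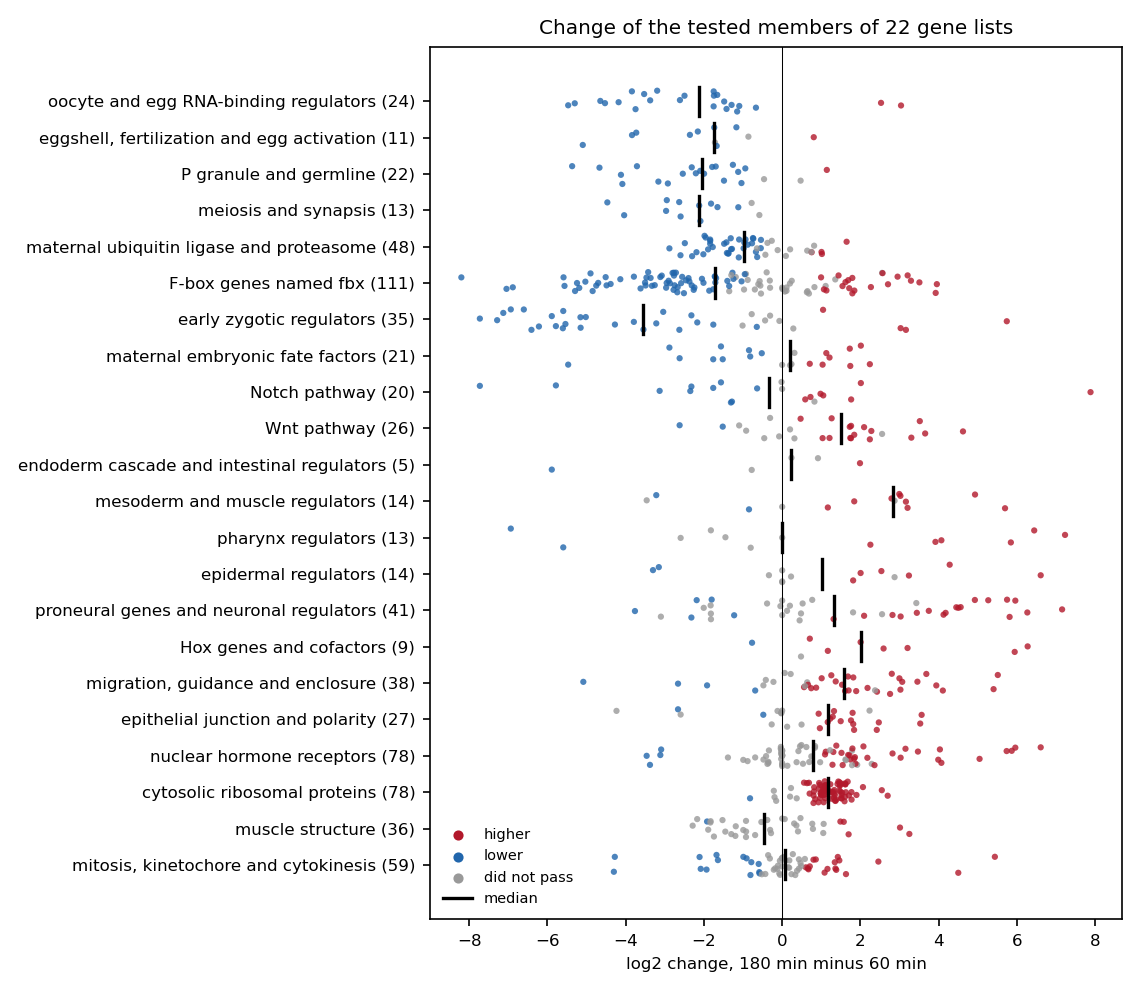
Each point is a tested gene of 1 of 22 gene lists (rows, number tested in brackets), placed by its log2 change at 180 min relative to 60 min and coloured by its call; the black bar is the list median. The rows of oocyte, eggshell, P granule, meiosis, ubiquitin ligase and proteasome, F-box and early zygotic genes lie mostly left of 0. Mostly right of it lie the rows of mesoderm, epidermal, neuronal, Hox, Wnt, migration, junction, nuclear receptor and ribosomal protein genes. The rows of maternal fate factors, Notch, endoderm, pharynx, muscle structure and mitosis genes lie on both sides of it.

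All 48 listed genes of maternal ubiquitin ligases and the proteasome were tested, and 34 were lower and 4 higher, and the median log2 change was -0.98. The proteasome subunit pbs-5 had 65.6, 52.2 and 72.5 CPM at 180 min and 299, 417 and 410 CPM at 60 min (log2 change -2.60 ± 0.23 SE, adjusted p = 1.6e-11). pas-2 (-2.49), pas-5 (-2.30), rpn-10 (-2.02), pbs-3 (-1.99) and the cullin cul-1 (-2.19) were lower too. The gene zif-1, the ligase subunit that removes maternal CCCH zinc-finger proteins from somatic cells, had 12.6, 19.6 and 8.37 CPM at 180 min and 77.8, 100.2 and 145 CPM at 60 min (-2.88 ± 0.43 SE). The opposite direction was taken by lin-23, an F-box protein that limits cell division, with 379, 381 and 332 CPM at 180 min and 96.4, 132 and 117 CPM at 60 min (1.65 ± 0.20 SE), and by the proteasome ATPase rpt-6 (1.01), which did not pass with spike-in scaling. With spike-in scaling 13 of the 48 were lower and 1 higher.

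The large families of substrate adaptors and Skp1-like linkers were split within themselves. Of 111 tested F-box genes named fbx (311 listed), 63 were lower and 20 higher, and the median log2 change was -1.71. The F-box gene fbxb-117 had no count in the 180 min libraries and 28.0, 34.1 and 40.4 CPM at 60 min, at least 18.0-fold lower, but did not pass in DESeq2. Its relative fbxc-31 had 2.52, 2.61 and 2.79 CPM at 180 min and 103, 164 and 146 CPM at 60 min (log2 change -5.59 ± 0.49 SE). In the other direction, fbxc-40 had 159, 88.7 and 109 CPM at 180 min and 3.11, 8.02 and 8.97 CPM at 60 min (3.95 ± 0.42 SE). Among 16 tested Skp1-related genes (20 listed), 7 were lower, led by skr-2 (-3.53), skr-15 (-3.08) and skr-9 (-2.89), and the median was -0.56. Another 3 were higher, led by skr-21 with 273, 323 and 301 CPM at 180 min and 3.11, 22.1 and 10.5 CPM at 60 min (4.54 ± 0.29 SE). Of 12 tested MATH-BTB adaptor genes named bath (36 listed), 6 were lower and 5 higher, with a median of -0.51. Of these bath-33 had 0 counts at 180 min (at least 23.5-fold lower), while bath-10 was higher (3.67 ± 0.42 SE). These families hold near-identical copies, between which reads could have been split, so single members are uncertain.

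Early zygotic regulators are genes that the embryo itself transcribes in its first divisions. Of 58 listed genes 35 were tested, 25 were lower and 4 higher, and the median log2 change was -3.55. Of the 50 found in the data, 25 are also in other lists described here. Among these are 11 of the 25 lower and 3 of the 4 higher genes. The gene pes-10, an early transcript of somatic cells, had 0, 7.82 and 0 CPM at 180 min and 762, 583 and 586 CPM at 60 min (log2 change -7.29 ± 0.59 SE, adjusted p = 2.7e-09). The gene vet-1, named for very early transcripts, had 106, 146 and 126 CPM at 180 min and 2019, 1817 and 1468 CPM at 60 min (-3.79 ± 0.47 SE), and had rank 7 by level at 60 min. The forkhead genes fkh-4 (0, 5.22 and 0 CPM at 180 min; 339, 427 and 422 CPM at 60 min), fkh-3 (log2 change -6.60) and fkh-5 (-5.16) were all lower. Of the paired T-box genes that start the anterior pharynx and ectoderm, tbx-38 had 0, 2.61 and 2.79 CPM at 180 min and 199, 309 and 303 CPM at 60 min, a ratio of 143 (counting interval 48.7 to 698). Its partner tbx-37 had a ratio of 56.7 (15.3 to 474). The groups were far apart for all of these genes, but fkh-3 and fkh-4, like tbx-37 and tbx-38, are near-identical pairs and their single values are uncertain.

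Of the Notch-dependent helix-loop-helix genes of the REF-1 family, hlh-25, hlh-27 and ref-1 passed as lower, and hlh-26, hlh-28 and hlh-29 were not tested. The gene hlh-25 had no count in the 180 min libraries and 56.0, 42.1 and 68.8 CPM at 60 min (at least 28.9-fold lower). The related hlh-27 had 2.52, 7.82 and 2.79 CPM at 180 min and 280, 275 and 339 CPM at 60 min (log2 change -5.79 ± 0.46 SE), and ref-1 fell by 2.32 on the log2 scale. The gene lsy-27, a zinc-finger regulator of left-right asymmetry, had 2.52, 11.7 and 2.79 CPM at 180 min and 333, 327 and 354 CPM at 60 min (-5.54 ± 0.38 SE). Among the sdz genes, sdz-38 (-6.41), sdz-1 (-6.22), sdz-12 (-5.15) and sdz-26 (-5.02) were lower. The higher members included the T-box genes tbx-8, which acts in muscle and epidermal patterning, with 106, 134 and 83.7 CPM at 180 min and 9.33, 14.03 and 11.96 CPM at 60 min (3.16 ± 0.37 SE), and tbx-43, whose level peaked at 120 min. med-1 and med-2, the near-identical mesendoderm regulators, had 0 counts at 180 min and 1 count each at 60 min and were not tested.

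**Figure D3:**
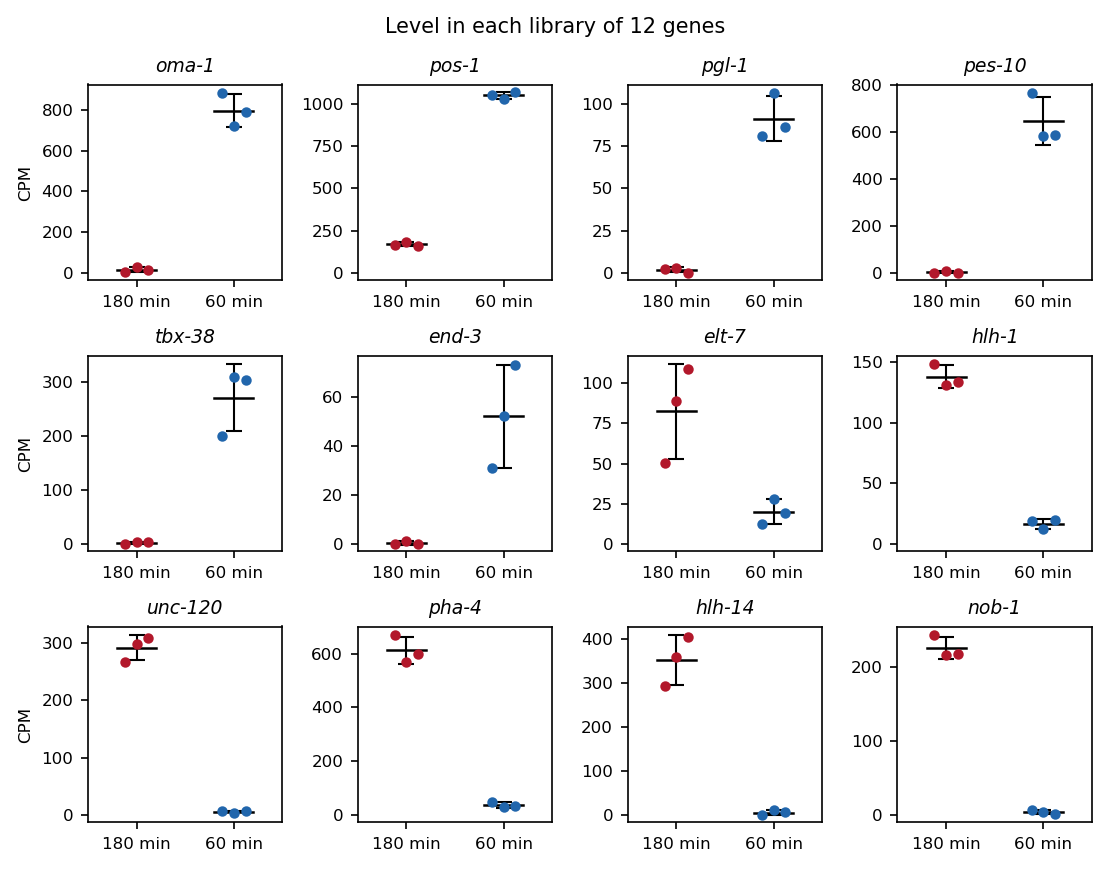
CPM of 12 genes in each library (points, replicates 1 to 3 from left to right), with the stage mean (bar) and SD (n = 3 per stage, whiskers), 180 min in red and 60 min in blue, on linear axes. The maternal genes oma-1, pos-1 and pgl-1 and the early zygotic genes pes-10, tbx-38 and end-3 are lower at 180 min, the other 6 tissue regulators are higher, and the points of both stages do not overlap in any panel.

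In the endoderm cascade, in which the maternal factor SKN-1 acts through MED, END and then ELT regulators, the successive steps lay in different directions. The earliest endoderm-specific GATA factor gene end-3 had 0, 1.304 and 0 CPM at 180 min and 31.1, 52.1 and 73.2 CPM at 60 min, a ratio of 86.8 (counting interval 15.2 to 3470). It passed in edgeR (adjusted p = 6.7e-07) but not in DESeq2 (adjusted p = 0.336). end-1, its partner, had 25.24, 27.4 and 36.3 CPM at 180 min and 52.9, 56.1 and 43.3 CPM at 60 min and did not pass, although the groups did not overlap (adjusted p = 0.12). The gene elt-7, a GATA factor of intestinal differentiation, had 50.5, 88.7 and 109 CPM at 180 min and 12.4, 28.1 and 19.4 CPM at 60 min (log2 change 1.99 ± 0.35 SE, adjusted p = 9.8e-06).

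elt-2, the main intestinal GATA factor, had 50.5, 54.8 and 53.0 CPM at 180 min and 3.11, 76.2 and 2.99 CPM at 60 min. The 3 values at 180 min were alike, whereas 60 min replicate 2 alone was high, and the gene did not pass (log2 change 0.91 ± 1.17 SE, adjusted p = 0.54). Without that library its log2 change was 4.01, with an adjusted p of 0.083. Of 20 tested genes of intestinal differentiation (30 listed), 4 were higher and 1 lower, and their median log2 change was 0.38 (0.71 at bounds). Among the higher was the aquaglyceroporin aqp-2, with 813, 811 and 645 CPM at 180 min and 52.9, 146 and 61.3 CPM at 60 min (3.10 ± 0.45 SE), while 7 of the 20 had at most 3 counts at each stage.

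Of 14 tested regulators of mesoderm and muscle (19 listed), 9 were higher and 2 lower, and the median log2 change was 2.83 (2.87 at bounds). The gene unc-120, a serum response factor homologue of muscle, had 267, 299 and 310 CPM at 180 min and 6.22, 4.01 and 5.98 CPM at 60 min (log2 change 5.70 ± 0.37 SE, adjusted p = 9.0e-15). The MyoD homologue hlh-1 had 149, 132 and 134 CPM at 180 min and 18.7, 12.03 and 19.4 CPM at 60 min (3.02 ± 0.35 SE). The gene hnd-1, a HAND factor that acts with both in body wall muscle, had 177, 240 and 234 CPM at 180 min and 24.9, 38.1 and 19.4 CPM at 60 min (2.99 ± 0.32 SE). All 180 min values lay well above all 60 min values for the 3 genes. The gene mls-2, a homeobox gene of postembryonic mesoderm and some neurons, had a ratio of 35.7 (counting interval 9.54 to 301). The gene ceh-51, a homeobox factor of the MS blastomere, took the other direction, with 0, 14.3 and 19.5 CPM at 180 min and 103, 120 and 109 CPM at 60 min (-3.22 ± 0.40 SE). The maternal and zygotic regulator pal-1 was lower by less (-0.85 ± 0.25 SE) and did not pass with spike-in scaling or without replicate 3 of every stage.

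Of 36 tested genes for the muscle apparatus itself (38 listed), 5 passed as higher and 1 as lower, so 30 did not pass, and the median was -0.46 (-0.81 at bounds). The attachment genes pat-4, an integrin-linked kinase, with 63.1, 78.2 and 72.5 CPM at 180 min and 3.11, 8.02 and 8.97 CPM at 60 min (log2 change 3.25 ± 0.39 SE), unc-112 (1.70) and the actin-severing gene unc-60 (1.57) were higher. The myosin heavy chain gene myo-3 had 2.52, 1.304 and 0 CPM at 180 min and 9.33, 2.00 and 0 CPM at 60 min. The myosin gene unc-54 had 12.6, 6.52 and 0 CPM at 180 min and 87.1, 24.1 and 7.47 CPM at 60 min and did not pass. Its highest value was in 60 min replicate 1, the library rich in yolk protein and collagen mRNA. It passed as lower in DESeq2, with spike-in scaling and without 60 min replicate 3. The part of adult tissue in these values was not tested.

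Of 13 tested pharynx regulators (16 listed), 6 were higher and 2 lower, the lower ones being the early T-box genes tbx-37 and tbx-38. The median log2 change was 0 (3.55 at bounds, since 4 members were at or under the floor at both stages). The organ's FoxA master regulator gene pha-4 had 669, 570 and 597 CPM at 180 min and 49.8, 28.1 and 34.4 CPM at 60 min (log2 change 4.07 ± 0.31 SE, adjusted p = 2.5e-13). The Eyes-absent homologue eya-1 had 684, 472 and 530 CPM at 180 min and 40.4, 44.1 and 28.4 CPM at 60 min (3.92 ± 0.28 SE). Its partner ceh-34, a Six-family homeobox gene, had 58.0, 67.8 and 27.9 CPM at 180 min and 0, 2.00 and 0 CPM at 60 min, a ratio of 83.2 (counting interval 14.5 to 3324). The goosecoid-like gene ceh-45 was at least 11.7-fold higher against 0 counts. The gene tbx-2, for pharyngeal muscle, was higher as well (2.25 ± 0.31 SE).

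Of 14 tested epidermal regulators (21 listed), 6 were higher and 2 lower, and the median was 1.02 (2.01 at bounds). The gene elt-1, the GATA factor that specifies epidermis, had 255, 383 and 315 CPM at 180 min and 15.6, 46.1 and 34.4 CPM at 60 min (log2 change 3.24 ± 0.31 SE, adjusted p = 1.3e-10). The gene lin-26, a zinc-finger gene that maintains epidermal and support-cell fates, had 379, 471 and 360 CPM at 180 min and 52.9, 72.2 and 79.2 CPM at 60 min (2.54 ± 0.26 SE). The gene nhr-25, a nuclear receptor of the epidermis, had 234.7, 140 and 304 CPM at 180 min and 0, 4.01 and 1.49 CPM at 60 min, a ratio of 101 (counting interval 34.2 to 491). The groups did not overlap for any of them. The gene egl-18, a GATA factor of the seam, was lower, with 17.7, 44.3 and 13.95 CPM at 180 min and 193, 329 and 320 CPM at 60 min (-3.30 ± 0.34 SE). It overlaps another annotated gene.

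Of 27 tested genes for junctions and adhesion (28 listed), 15 were higher and 2 lower, and the median log2 change was 1.16 (1.29 at bounds). The gene dlg-1, a scaffold of the apical junction, had 237, 134 and 215 CPM at 180 min and 12.4, 16.04 and 17.9 CPM at 60 min (log2 change 3.57 ± 0.32 SE, adjusted p = 1.8e-11). The afadin homologue afd-1 had 674, 593 and 427 CPM at 180 min and 52.9, 50.1 and 44.8 CPM at 60 min (3.53 ± 0.26 SE). The alpha-catenin gene hmp-1 was higher (2.42 ± 0.23 SE), whereas its cadherin partner hmr-1 had 495, 549 and 290 CPM at 180 min and 383, 407 and 438 CPM at 60 min and did not pass. The L1-type adhesion molecule gene sax-7 was lower (-2.66 ± 0.36 SE).

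Of 41 tested proneural genes and neuronal regulators (57 listed), 18 were higher and 5 lower, and the median log2 change was 1.31 (2.56 at bounds), and 11 of the 41 had at most 3 counts at each stage. The gene hlh-14, an Achaete-Scute-type gene of neuroblasts, had 293, 360 and 405 CPM at 180 min and 0, 10.02 and 5.98 CPM at 60 min (log2 change 5.81 ± 0.41 SE, adjusted p = 7.4e-14). The Atonal homologue lin-32 had 90.8, 80.9 and 39.1 CPM at 180 min and 0, 0 and 1.49 CPM at 60 min, a ratio of 110 (counting interval 19.3 to 4368). The ETS gene ast-1, for dopaminergic neurons, had 32.8, 41.7 and 36.3 CPM at 180 min and 0 counts at 60 min, at least 18.9-fold higher. The gene unc-130, a forkhead gene of neuronal lineages, had 141, 129 and 142 CPM at 180 min and 3.11, 8.02 and 8.97 CPM at 60 min (4.18 ± 0.37 SE). The homeobox genes ceh-36 (3.75), ceh-37 (4.45), ceh-10 (4.50) and ceh-43 (3.44) and the SOX gene sox-2 (4.56) were higher. Lower were ngn-1, the neurogenin homologue, with 15.1, 14.3 and 11.2 CPM at 180 min and 49.8, 40.1 and 55.3 CPM at 60 min (-1.80 ± 0.44 SE), and hlh-3 (-2.32). Of 18 tested genes for synapses and pan-neuronal functions (30 listed), 5 (27.8%) were higher and 4 (22.2%) lower, and the median log2 change was 0.10. These shares were close to the 28.0% and 24.6% of all tested genes. The liprin scaffold gene of synapses, syd-2, was higher (1.67 ± 0.25 SE).

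Among Hox genes and their cofactors, 7 of 9 tested (11 listed) were higher and 1 lower, and the median log2 change was 2.01 (2.30 at bounds). The posterior Hox gene nob-1 had 242, 215 and 218 CPM at 180 min and 6.22, 4.01 and 1.49 CPM at 60 min (log2 change 5.94 ± 0.41 SE, adjusted p = 3.2e-14). The related posterior gene php-3 had 245, 180 and 100.4 CPM at 180 min and 0, 4.01 and 1.49 CPM at 60 min (ratio 88.4, counting interval 29.9 to 431). The anterior Hox gene ceh-13 had 358, 411 and 382 CPM at 180 min and 56.0, 156 and 70.3 CPM at 60 min (2.01 ± 0.24 SE), and the PBX cofactor ceh-20 was higher by 3.21 ± 0.25 SE. The gene lin-39, a mid-body Hox gene, passed only narrowly (0.71 ± 0.30 SE, adjusted p = 0.0498), and lost its call with spike-in scaling, in DESeq2 and without 60 min replicate 1 or 2 or 180 min replicate 1 or 2. The other mid-body gene mab-5 had at most 3.11 CPM in any of the 6 libraries and did not pass.

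Wnt pathway genes leaned to 180 min, with 16 of 26 tested (30 listed) higher and 2 lower and a median log2 change of 1.50 (1.26 at bounds). The gene mom-2, the Wnt ligand that polarises the endoderm precursor, was one of the lower genes, with 32.8, 31.3 and 64.2 CPM at 180 min and 221, 251 and 283 CPM at 60 min (log2 change -2.62 ± 0.29 SE, adjusted p = 1.4e-09). The other ligand genes cwn-2, with 70.7, 103 and 89.3 CPM at 180 min and 0, 8.02 and 1.49 CPM at 60 min (4.62 ± 0.46 SE), and cwn-1 (1.84 ± 0.44 SE) were higher. The Frizzled receptor genes lin-17 (3.65 ± 0.48 SE) and mig-1 (3.30 ± 0.51 SE) and, inside the cell, the beta-catenins sys-1 (2.24) and wrm-1 (1.73), dsh-1 Dishevelled (2.28) and pry-1 Axin (2.09) were higher. The TCF effector gene pop-1 had 131, 74.3 and 22.3 CPM at 180 min and 118, 32.1 and 47.8 CPM at 60 min, overlapping and not called.

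Of 20 tested Notch pathway genes (31 listed), 10 were lower and 7 higher, and the median was -0.33 (-0.64 at bounds). The receptor genes went in opposite directions between 60 and 180 min. Both had their highest stage mean at 120 min, 101 ± 29.1 CPM for glp-1 and 103 ± 15.5 CPM for lin-12 (± SD), and were lower again at 180 min. The maternal receptor gene glp-1 had 15.1, 17.0 and 30.7 CPM at 180 min and 62.2, 74.2 and 68.8 CPM at 60 min (log2 change -1.76 ± 0.34 SE). The other receptor gene, lin-12, had 68.1, 56.1 and 44.6 CPM at 180 min and 18.7, 30.1 and 29.9 CPM at 60 min (1.05 ± 0.34 SE). Both lost their call with spike-in scaling, and lin-12 also in DESeq2. Among the ligands, apx-1, which signals in the early divisions, fell by 1.56 on the log2 scale. Another ligand gene, dsl-2, had 144, 142 and 204 CPM at 180 min and 886, 882 and 709 CPM at 60 min (-2.35 ± 0.24 SE). The ligand gene dsl-1 fell by 3.13 on that scale, and dsl-3, described above, was higher. The DNA-binding effector lag-1 had 146, 93.9 and 140 CPM at 180 min and 140, 116 and 120 CPM at 60 min and did not pass.

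Of 21 tested maternal fate factors (23 listed), 9 were lower and 8 higher, with a median of 0.20. Most are not a separate observation, since 19 of the 23 are also in other lists described here, mainly those of the Wnt and Notch pathways, and 7 of the 9 lower and 6 of the 8 higher genes are among these. Of the other 4, the chromatin genes let-418 and mep-1 were higher and the E2F and DP homologues efl-1 and dpl-1 were lower. All 4 calls were lost with spike-in scaling, and those of let-418 and efl-1 (adjusted p = 0.048 and 0.049) also without any of several single libraries. The gene skn-1, which starts the mesendoderm, had 68.1, 103 and 75.3 CPM at 180 min and 56.0, 56.1 and 95.7 CPM at 60 min and did not pass. At 120 min its mean was higher than at both (87.9, 157 and 182 CPM). Other lists share members too. Of the genes found in the data, 13 of 29 Wnt, 11 of 31 Notch and 11 of 16 pharynx genes are in another list. So are 11 of 19 mesoderm, 25 of 57 proneural and neuronal, 7 of 11 Hox and 8 of 20 epidermal genes.

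Genes of cell migration, axon guidance and body enclosure were higher in 26 of 38 tested (44 listed) and lower in 4, and the median log2 change was 1.57. The laminin alpha chain epi-1 had 593, 438 and 739 CPM at 180 min and 28.0, 48.1 and 25.4 CPM at 60 min (log2 change 4.11 ± 0.25 SE, adjusted p = 3.2e-15). The netrin receptor gene unc-5 had 1040, 512.5 and 639 CPM at 180 min and 68.4, 56.1 and 25.4 CPM at 60 min (3.94 ± 0.47 SE). The anosmin homologue kal-1 had 192, 151 and 206 CPM at 180 min and 3.11, 4.01 and 4.48 CPM at 60 min (5.40 ± 0.39 SE). Of the ephrins, which act in ventral enclosure, efn-2 was at least 5.87-fold higher and efn-4 higher by 3.68 ± 0.44 SE on the log2 scale. The Slit ligand gene slt-1 had no count in the 180 min libraries and 9.33, 8.02 and 8.97 CPM at 60 min, at least 4.43-fold lower.

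Nuclear hormone receptors, a greatly expanded family in this worm, were mostly too low to test (78 of 268), and of those 78, 29 were higher and 4 lower, and the median log2 change was 0.79 (1.31 at bounds). The tailless homologue nhr-67 had 167, 160 and 94.9 CPM at 180 min and 0, 6.01 and 0 CPM at 60 min (ratio 72.8, counting interval 24.6 to 355), and nhr-68 a ratio of 71.0 (19.3 to 592). Homeobox genes named ceh numbered 14 higher and 9 lower of 35 tested (63 listed), with a median of 0.46. The lower included ceh-76, with 0, 1.304 and 0 CPM at 180 min and 34.2, 32.1 and 41.9 CPM at 60 min (ratio 56.2, counting interval 9.67 to 2259). Helix-loop-helix genes named hlh were 4 higher and 3 lower of 12 tested (25 listed), T-box genes 4 and 4 of 9 (17 listed), and forkhead genes named fkh 2 and 3 of 6 (9 listed). The gene fkh-2, of the higher forkhead genes, had 109, 100.4 and 137 CPM at 180 min and 3.11, 26.1 and 4.48 CPM at 60 min (log2 change 3.28 ± 0.42 SE).

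Of 25 tested genes for cell death and corpse removal (27 listed), 10 were higher and 4 lower, and the median was 0.52. The gene egl-1, the BH3-only trigger of cell death, had 17.7, 9.13 and 11.2 CPM at 180 min and 0, 2.00 and 0 CPM at 60 min, a ratio of 17.6 (counting interval 2.78 to 734). The Apaf-1 homologue ced-4 had 232, 220 and 246 CPM at 180 min and 31.1, 52.1 and 70.3 CPM at 60 min (log2 change 2.11 ± 0.26 SE). The caspase gene ced-3 had 12.6, 22.2 and 22.3 CPM at 180 min and 12.4, 16.04 and 11.96 CPM at 60 min. The death inhibitor ced-9 had 767, 634 and 717 CPM at 180 min and 638, 692 and 785 CPM at 60 min. Neither passed. The nucleases nuc-1 (4.34 ± 0.34 SE) and crn-6 (2.74 ± 0.39 SE), which digest the DNA of dead cells, and ttr-52, a bridge between corpse and engulfing cell (ratio 52.9, counting interval 9.09 to 2126), were higher. The engulfment receptor gene psr-1 was lower (-2.65 ± 0.40 SE).

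Of 22 tested genes listed for sex determination and dosage compensation (25 listed), 6 (27.3%) were higher and 5 (22.7%) lower, with a median of 0.19. These shares were close to the 28.0% and 24.6% of all tested genes. The 22 include dpy-31, a cuticle protease gene that belongs to neither process and did not pass. The gene sea-1, an autosomal signal element that promotes male development, had 10.1, 36.5 and 27.9 CPM at 180 min and 327, 459 and 371 CPM at 60 min (log2 change -3.85 ± 0.41 SE, adjusted p = 9.7e-09). The gene dpy-27, a subunit of the dosage compensation complex on the X chromosome, had 399, 325 and 405 CPM at 180 min and 143, 124 and 103 CPM at 60 min (1.62 ± 0.20 SE). The gene xol-1, the switch gene read by the signal elements, had 50.5, 129 and 67.0 CPM at 180 min and 62.2, 108 and 126 CPM at 60 min. Its hermaphrodite effector sdc-2 had 204, 88.7 and 100.4 CPM at 180 min and 146, 196 and 129 CPM at 60 min. For both genes the groups overlapped, and neither passed.

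Of 78 tested cytosolic ribosomal protein genes (79 listed), 71 were higher and 1 lower, and their log2 changes had a median of 1.17 and quartiles of 0.97 and 1.48. The median was 0.96 with DESeq2 size factors, 1.23 with library size alone and 1.35 with spike-in scaling, under which 46 were higher and 0 lower. The gene rps-16 had 858, 652 and 778 CPM at 180 min and 280, 207 and 188 CPM at 60 min (log2 change 1.77 ± 0.26 SE, adjusted p = 4.4e-07). A count above 500 occurred somewhere in the time course for 76 of the 78, and no library held a worm gene count above 1023, so high values may be compressed. The paralogous pair rpl-11.2 and rpl-11.1 went opposite ways. The gene rpl-11.2 had 654, 580 and 572 CPM at 180 min and 106, 106 and 70.3 CPM at 60 min (2.70 ± 0.27 SE). The gene rpl-11.1 had 119, 115 and 103 CPM at 180 min and 274, 168 and 166 CPM at 60 min (-0.82 ± 0.26 SE). The lower call of rpl-11.1 was lost without 60 min replicate 1 and with spike-in scaling.

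Of 24 tested translation factors (26 listed), 6 were higher and 7 lower, and the median was -0.16. Within the cap-binding eIF4E family, the germline forms ife-3 (log2 change -1.42 ± 0.26 SE) and ife-1 (-1.15 ± 0.24 SE) were lower. Another form, ife-4, had 116, 87.4 and 126 CPM at 180 min and 15.6, 14.03 and 7.47 CPM at 60 min (3.19 ± 0.34 SE). The calls of ife-1 and ife-3 were lost with spike-in scaling. Of 42 tested general transcription and chromatin genes (43 listed), 10 (23.8%) were higher and 8 (19.05%) lower, with a median of 0.12. Of 41 RNA decay genes (46 listed), 12 (29.3%) were higher and 13 (31.7%) lower, with a median of 0.08. The poly(U) polymerase pup-3 had 2.52, 3.91 and 0 CPM at 180 min and 80.9, 140 and 106 CPM at 60 min (-5.27 ± 0.53 SE), and the miRNA-processing gene pash-1 was lower (-3.03 ± 0.31 SE). The gene ain-1, a GW182-type partner of miRNA Argonautes, had 994, 970 and 1141 CPM at 180 min and 99.5, 241 and 193 CPM at 60 min (2.51 ± 0.29 SE).

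In the cell cycle, 17 of 59 tested mitosis genes (62 listed) were higher (28.8%) and 14 lower (23.7%), close to the shares of all tested genes, and the median log2 change was 0.08. The B-type cyclin cyb-2.1 had 5.05, 6.52 and 11.2 CPM at 180 min and 134, 154 and 155 CPM at 60 min (-4.30 ± 0.58 SE), and its near-identical relative cyb-2.2 was lower as well (-4.28). The cyclin D gene cyd-1 had 883, 708 and 795 CPM at 180 min and 18.7, 56.1 and 26.9 CPM at 60 min and was higher (4.50 ± 0.31 SE, adjusted p = 8.7e-14). The CDK inhibitor gene cki-1, whose product arrests cells, had 338, 330 and 324 CPM at 180 min and 6.22, 8.02 and 7.47 CPM at 60 min and was higher as well (5.44 ± 0.32 SE, adjusted p = 1.2e-15). Of 33 tested DNA replication genes (35 listed), 12 were lower and 2 higher, and the median was -0.31. The dUTPase dut-1 (-2.06 ± 0.42 SE), the ribonucleotide reductase rnr-2 (-1.66 ± 0.24 SE) and rfc-1 (-1.55 ± 0.21 SE) were lower, and orc-1 was higher (1.74 ± 0.36 SE). With spike-in scaling 3 replication genes were lower and 1 higher.

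Of 23 tested polarity and cortex genes (25 listed), 7 (30.4%) were higher and 6 (26.1%) lower, beside 28.0% and 24.6% of all tested genes. The median was 0.09. With DESeq2 size factors the medians of the mitosis, polarity and RNA decay lists were each -0.12, that of the transcription list -0.08, that of the pan-neuronal list -0.09 and that of the sex determination list -0.01. The gene rga-3, a RhoA GTPase-activating protein of the zygote's cortex, had 17.7, 20.9 and 8.37 CPM at 180 min and 249, 245 and 294 CPM at 60 min (log2 change -3.96 ± 0.37 SE), whereas lgl-1, a Lethal giant larvae homologue, was higher (3.13 ± 0.35 SE). The gene par-6, of the anterior complex, was lower except with spike-in scaling. The genes par-1, par-2, par-3 and par-5 did not pass, although par-3 passed as higher without 60 min replicate 2. Of 24 tested chaperone genes (32 listed), 4 were higher and 5 lower, led by the chaperonin subunit cct-1 (-1.74 ± 0.22 SE), and of 8 tubulins tested (13 listed) 2 were higher and 2 lower. Among the genes used to look for the mothers' tissue, 4 of 73 sperm-related genes were tested, with the protein phosphatase gene gsp-1 higher and spe-48 lower, both lost with spike-in scaling and spe-48 also without any of 5 single libraries. Of 17 adult cuticle, gut lumen and pharynx genes 5 were tested, with 0 higher and 0 lower.

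Calls were also counted by chromosome. Of 1119 tested X-linked genes, 411 (36.7%) were higher and 130 (11.6%) lower, and the median log2 change was 0.48. On the 5 autosomes 25.6 to 27.6% of the tested genes were higher and 23.3 to 29.3% lower, with medians between -0.01 and 0. X-linked genes gave 11.6, 11.6 and 11.4% of the worm counts at 180 min and 6.71, 7.23 and 7.14% at 60 min, whereas the share of each autosome was lower at 180 min than at 60 min in all libraries. The X-linked median was 0.30 with DESeq2 size factors, where the median of all other genes was -0.15, and 0.57 with spike-in scaling, where 270 X-linked genes were higher and 67 lower. Without a filter on low counts 2448 X-linked genes were tested, and the medians of X-linked and of all other genes were both 0, with 411 X-linked genes higher and 181 lower. Chromosomes were taken from the WBcel235 annotation and the difference between chromosomes was not tested.

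**Figure D4:**
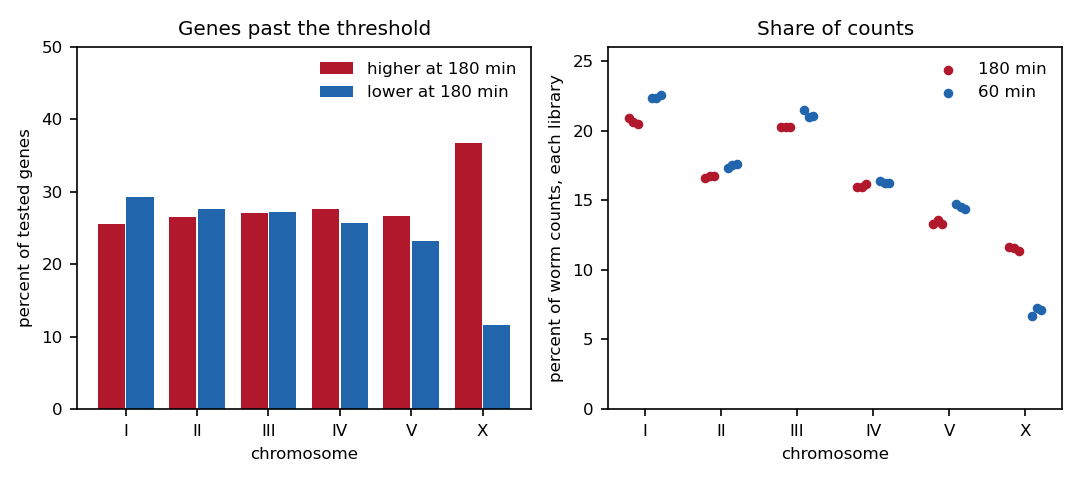
Left, percent of tested genes on each nuclear chromosome that were higher (red) or lower (blue) at 180 min than at 60 min, on an axis from 0. Right, percent of all worm counts that fell on each chromosome in each of the 3 libraries at 180 min (red) and at 60 min (blue); the X chromosome is the only one of the 6 with a larger share at 180 min.

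Transcripts of the higher genes had a median length of 1529 nt (quartiles 996 and 2403) and 6 exons, and those of the lower genes 1342 nt (918 and 1978) and 5 exons. Over all tested genes the medians were 1464 nt (966 and 2256) and 6 exons. Genes with 1 or 2 exons made up 7.51% of the higher genes and 12.6% of the lower genes, beside 8.68% of all tested genes. An annotation was found for 99.3% of the higher and 99.6% of the lower genes. Genes that overlap another annotated gene made up 40.5% of the higher and 35.1% of the lower genes, beside 39.8% of all tested genes. Reads of such pairs cannot be assigned with certainty because the strand used in counting is not given in the sources used here. The genes named here with such an overlap, whose values are uncertain in this respect, are C05A9.2, F32H2.6, W03G11.4, ain-1, ast-1, bath-33, cct-1, ced-3, ceh-10, ceh-20, ceh-27, ceh-34, ceh-37, ceh-43, ceh-51, csr-1, ctl-2, cwn-2, cyd-1, dlg-1, dmd-5, dpl-1, dre-1, dsh-1, dut-1, efn-4, egl-18, end-3, epi-1, eya-1, fbxb-38, fkh-2, fkh-5, glp-1, hlh-1, hlh-27, hmp-1, hmr-1, ife-1, ife-3, lag-1, let-4, lgl-1, lin-26, lin-39, lsy-27, mbk-2, mex-1, mls-2, myo-3, nhr-25, nhr-67, nos-2, pal-1, par-1, par-3, par-6, pbs-3, pha-4, pie-1, pop-1, pry-1, psr-1, rnr-2, rpn-10, rps-16, rpt-6, sax-7, sdc-2, sdz-1, skn-1, slt-1, sox-2, spo-11, syd-2, tbx-38, tbx-43, unc-112, unc-120, unc-5, unc-60 and zif-1. Counts above 500 in some library were reached by 272 of the 2321 higher and 137 of the 2036 lower genes, beside 644 of all 8279 tested genes.

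The libraries at 120 min show the path between both stages. Of 8279 genes, the log2 change of the second hour was above that of the first in 730 (8.82%) and below it in 1226 (14.8%), by the test of the difference between both hourly steps. Of the 2321 genes higher at 180 min, 673 had a second-hour change below that of the first hour. For 403 of these the mean at 120 min was above both other stage means, and for 270 it lay between them. Another 67 of the higher genes had a second-hour change above that of the first, and 55 of them had their lowest mean at 120 min. Of the 2036 lower genes, 480 had a second-hour change above that of the first hour, with the mean at 120 min below both other means for 385 and between them for 95. For 218 lower genes the second-hour change was below that of the first, and 146 of these had their highest mean at 120 min. Over all called genes, the mean at 120 min lay between the other 2 stage means for 1650 of the 2321 higher and 1286 of the 2036 lower genes. It lay above both for 521 of the higher and below both for 572 of the lower genes. Among all 8279 tested genes it lay between them for 4327, above both for 2022 and below both for 1930. With spike-in scaling 47 and 141 genes passed this test, and without 120 min replicate 3 428 and 807 did.

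Genes with a spike at 120 min led one end. The T-box gene tbx-43 had no count in the 60 min libraries, 170, 168 and 148 CPM at 120 min and 7.57, 13.04 and 22.3 CPM at 180 min. Its second-hour minus first-hour change was -12.75 on the log2 scale, a size that depends on the prior count (adjusted p = 4.5e-10 by the test of the difference between both hourly steps). The gene btb-8, with a BTB domain, had 37.3, 62.1 and 56.8 CPM at 60 min, 369, 333 and 412 CPM at 120 min and 12.6, 7.82 and 22.3 CPM at 180 min (-7.62 ± 0.53 SE). Both were high at 120 min alone. The F-box gene fbxb-38 (-7.91), Y43B11AL.1 (-10.99), Y116F11A.1 (-12.64) and ptr-6, of the Patched-related family (-7.07; not called without replicate 3 of every stage), were likewise high at 120 min. The regulators elt-1 and ceh-13 had higher means at 120 min than at either other time, and elt-1 averaged 32.0 ± 15.4 CPM at 60 min, 694 ± 109.7 CPM at 120 min and 318 ± 64.3 CPM at 180 min (± SD of 3 libraries). The values of pha-4 at 120 min (791.5, 587 and 550 CPM) overlapped those at 180 min (669, 570 and 597 CPM). Its highest stage mean was at 270 min.

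At the other end stood genes that were low at 120 min. The E2F-like factor gene efl-3 had 6.22, 20.1 and 22.4 CPM at 60 min, 5.86, 2.67 and 4.89 CPM at 120 min and 598, 532 and 642 CPM at 180 min (second hour minus first hour 8.99 ± 0.84 SE, adjusted p = 6.4e-10). The bZIP gene zip-7 (9.18 ± 2.12 SE) likewise had a mean near 0 at 120 min. The gene hlh-27 had 280, 275 and 339 CPM at 60 min and 0, 0 and 4.88 CPM already at 120 min (7.68 ± 1.50 SE), and F02H6.2 (9.04) and Y5H2B.3 (7.41) had the same course. Without replicate 2 of every stage the call was lost for hlh-27, F02H6.2 and Y5H2B.3, and for Y5H2B.3 also without 180 min replicate 2. The gene dre-1, an F-box gene of developmental timing, had 56.0, 72.2 and 64.3 CPM at 60 min, 11.7, 5.33 and 1.63 CPM at 120 min and 70.7, 50.9 and 69.8 CPM at 180 min (7.55 ± 0.88 SE), so it was low at 120 min alone and did not pass between 180 and 60 min (adjusted p = 0.91). The Hox gene lin-39 had 24.9, 24.1 and 44.8 CPM at 60 min, 0, 2.67 and 4.89 CPM at 120 min and 63.1, 54.8 and 41.9 CPM at 180 min, and was lowest at 120 min.

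**Figure D5:**
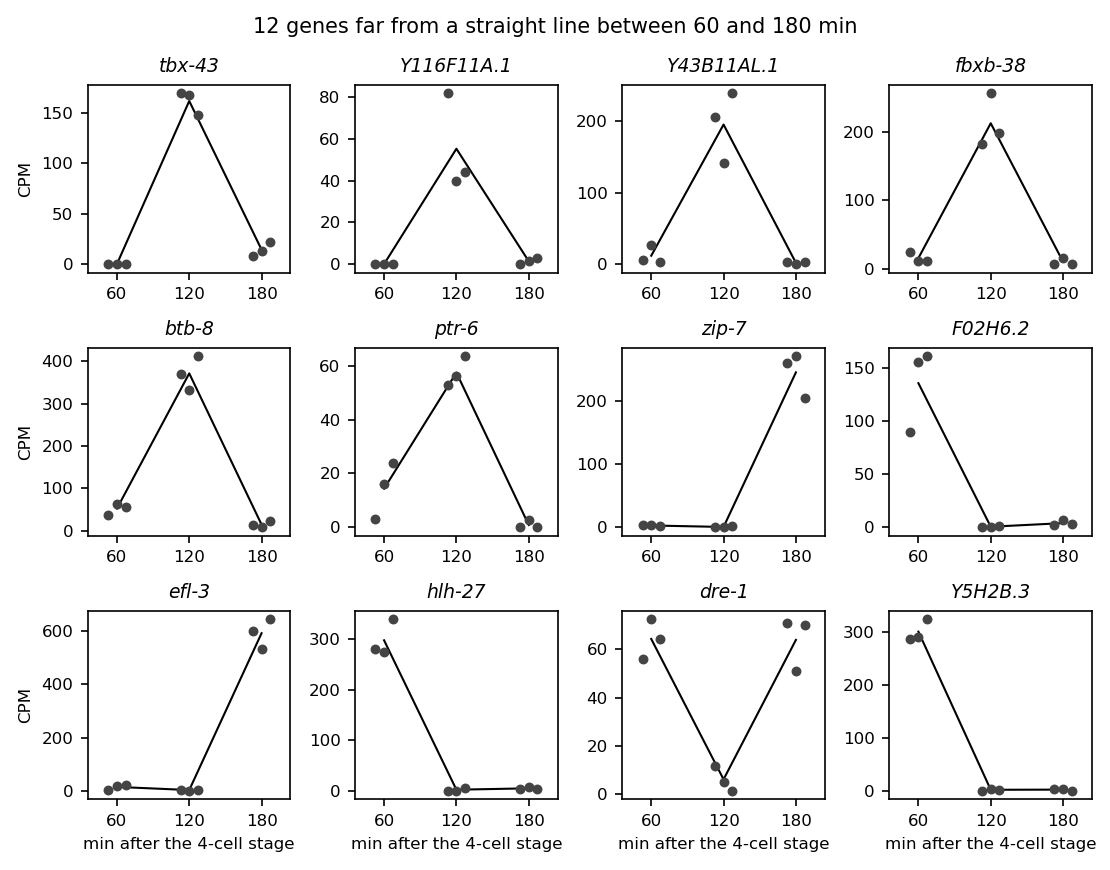
CPM of 12 genes in each library (points, replicates 1 to 3 from left to right) at 60, 120 and 180 min after the 4-cell stage, with a line through the stage means, on linear axes. In the first 6 panels the 120 min values are far above a straight line between the outer stages, and in the other 6 they are far below it; dre-1 has similar values at 60 and 180 min and few counts between.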

How the data were processed

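Embryo mRNA was measured by CEL-Seq in 24 libraries of 8 stages, 3 per stage, and groups follow the labelled times. The table holds raw counts per gene as the authors deposited them. HTSeq is the one tool that the submitters' processing notes name. No aligner, build, annotation, strand or use of molecular identifiers is given in the sources used here. ERCC spike-in entries were left out of library sizes and tests. edgeR 4.0.16 fitted stage over all 24 libraries (TMM scaling, filterByExpr with a minimum count of 10 and a minimum total of 15, robust quasi-likelihood test, two-sided) and p-values were adjusted by Benjamini-Hochberg over 8279 genes, with 0.05 as the threshold. The change of pace is the difference between the log2 steps 120 to 180 min and 60 to 120 min, in the same fit. Each SE was derived as the size of the log2 change divided by the square root of the F value of its test. For a gene at 0 counts at a stage, both the change and its SE depend on the prior count. The scripts were tested on simulated data. DESeq2 1.42.0 and other scalings, filters and left-out libraries were tried as alternatives. Ratios over 1 to 3 counts carry exact 95% intervals, and folds against 0 counts use a floor of 3 counts; both cover counting error only. Chromosomes and gene structure came from the WBcel235 annotation by sequence name. Named genes are the 12 highest and 12 lowest called genes without overlap between groups and with a level (mean of the higher stage) of 50 CPM or more; up to 4 members of each list in its majority direction and 1 in the other; any member of the lists of fate, signalling, sex and death regulators; and 6 genes in each direction of the change of pace. Other genes named were chosen after their values were seen. The gene lists, members and tests were chosen with earlier results of these data known. Nothing in the labels says that the samples of a stage came from separate cultures, and replicates 1 and 2 share a running sample number, so p-values measure the spread between these samples. Pairs of libraries within 60, 120 and 180 min differed by more than sampling noise (chi-square per degree of freedom 1.87 to 4.42); other stages were not compared in this way.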

Additional observations from a re-analysis of the deposited data

Results flagged for a closer look

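Genes whose change in the second hour differed from that in the first, by the test of that difference, numbered 730 above and 1226 below. Below were tbx-43 (-12.75 on the log2 scale), Y116F11A.1 (-12.64), Y43B11AL.1 (-10.99), fbxb-38 (-7.91), btb-8 (-7.62) and ptr-6 (-7.07). Above were zip-7 (9.18), F02H6.2 (9.04), efl-3 (8.99), hlh-27 (7.68), dre-1 (7.55) and Y5H2B.3 (7.41). Several of these have 0 counts at one stage, so the size of the fitted difference depends on the prior count.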

How the results depend on the processing

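Scaling to the ERCC spike-ins gave 1300 higher and 973 lower genes at 180 min than at 60 min, 47 above and 141 below in the change of pace, against 730 and 1226 in the reported fit, and 270 higher and 67 lower X-linked genes. The cause was not tested. Leaving out one library gave 2031 to 2201 higher and 1818 to 1993 lower genes, and leaving out one replicate number at every stage gave 1666 to 2060 and 1638 to 2092. For the change of pace these ranges were 428 to 740 and 240 to 735 above, and 807 to 1202 and 558 to 1094 below; the low values came without 120 min replicate 3 (428 and 807), without replicate 2 (311 and 703) and without replicate 3 (240 and 558). For X-linked genes they were 367 to 397 and 306 to 364 higher, and 113 to 124 and 99 to 126 lower. DESeq2 gave 1850 higher and 2263 lower genes, and DESeq2 size factors within edgeR 1986 and 2376, so that 45.0% and 45.5% of calls were higher, against 53.3% in the reported fit. A fit with the replicate number as a block gave 2487 higher and 2186 lower genes and 930 and 1421 in the change of pace; deviations of same-numbered samples correlated at 0.215, 0.055 and 0.081, not all above 0.1, and 180 min replicates 2 and 3 correlated best with another number, so the numbers were not taken to pair the samples. Per count of the 69 ERCC spike-ins used for scaling, replicate 1 nevertheless had the fewest worm counts and replicate 3 the most. The values were 84.7, 130 and 212 at 60 min, 73.9, 128 and 197 at 120 min and 113, 144 and 177 at 180 min. All ERCC spike-ins together made up 5.6, 3.625 and 5.25% of the counts at 180 min, so by that measure replicate 2 had the most worm counts there. A shared preparation of same-numbered samples was not tested. Of 7498 values for 377 named or listed genes, 358 lost and 40 gained a call under an alternative, and 0 turned direction. Of 840 counts of members called in a list's majority direction, 58 moved by over 1.5 times or to or from 0, 17 of them with spike-in scaling and 9 without replicate 2 of every stage. With spike-in scaling the lower members were 14 of the oocyte regulators, 6 of the Notch list, 4 of the fate factors, 2 of RNA decay, 1 of the chaperones and 0 of the translation factors. The higher members were then 18 nuclear hormone receptors, 6 of mitosis, 3 each of polarity and pan-neuronal genes, and 1 each of intestinal differentiation, sex determination and transcription. Leaving out a single library gave 3 higher sex determination genes and 5 higher transcription genes (180 min replicate 1), 6 higher transcription genes (60 min replicate 2), 4 lower translation factors (180 min replicate 2) and 2 higher intestinal genes (either replicate 2). Depth of 302648 to 666477 counts limits genes of a few counts.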
